A study of Mus musculus with 132 samples.

Results

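Megakaryocytes are the marrow cells that shed platelets, and platelets stop bleeding by sticking to damaged vessel walls, sensing soluble agonists and releasing stored granules. To describe this programme in blood progenitors made in culture, 33 megakaryocyte and platelet genes were taken by name from a table of 25146 genes, and all 33 were found. They encode the von Willebrand factor receptor, the fibrinogen receptor, receptors with signalling motifs, agonist receptors, granule contents, proteins of granule and platelet formation, cytoplasmic signalling proteins, eicosanoid enzymes and a tetraspanin. The rule that picks them out is their names, although the set was drawn up with earlier results of these data known.

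Poly(A)-minus RNA, the fraction left once polyadenylated RNA is taken out, was sequenced in 23 libraries of mouse embryonic stem cells (mESCs) of the male 129/Ola line E14-TG2a. Wild-type (WT) cells were profiled undifferentiated at day 0 (2 libraries, labelled as technical replicates), as Flk1+ mesoderm at day 4 (3 libraries) and as CD41+ hematopoietic progenitor cells (HPCs) at day 7 (4 libraries). In clones named P1-CTCF-KO or P2-CTCF-KO, CRISPR had deleted the CTCF motif next to the P1 or the P2 promoter of Runx1, a transcription factor of blood development. These clones gave 3 mesoderm libraries per genotype, 3 HPC libraries of P1-CTCF-KO and 5 of P2-CTCF-KO. The Methods name limiting dilution for the lines with a deleted CTCF site, and the origin of the WT clones is not described there. Each genotype has 3 named clones at the mesoderm and HPC stages. The paper calls the mutant clones independent. Its supplement traces the P1-CTCF-KO sub-clones to 2 targeting events and the P2-CTCF-KO sub-clones to 3. The 3 P1-CTCF-KO clones thus cannot each stem from an event of their own. A further 3 HPC libraries, marked -2, are repeats of a clone already in the group (B9.3, D10.1 and D2.1). P1-CTCF-KO E9.1 and P2-CTCF-KO E9.1 are different clones that share a name. The HPCs were sorted as Ter119-, CD41+ and CD45- cells, a gate meant to leave out Ter119+ erythroid and CD45+ blood cells. CD41 is the protein of Itga2b, so a high Itga2b in HPCs is a property of the sort and not a finding, and other genes of CD41+ cells were selected with it.

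Total counts ranged from 7805102 to 13513677 in HPC libraries and from 18233679 to 24406998 in mesoderm, but ribosomal and multi-locus entries took 87.8% to 91.0% of them. The other genes of an HPC library shared 878966 to 1584401 counts. Levels are given below as CPM, read counts scaled to library size, on a scale set by TMM, a normalization that equalizes libraries on their stable genes, over all 23 libraries, and folds that rest on a bound or a count ratio use this scale, whereas fitted log2 fold changes come from the fit of each comparison. A floor of 3 counts in a library corresponded to 0.209 to 0.608 CPM in HPCs. Polyadenylated RNA had been removed and reads were counted over exons and introns, so a long gene gathers more counts than a short one and a level is not one of mature mRNA.

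The rows of the members span 950 bases (Pf4) to 183068 bases (F13a1) in the mm9 build. Pf4 (chromosome 5, 91201460 to 91202409) and Ppbp (chromosome 5, 91197543 to 91199088) encode the chemokines that platelets store in alpha granules, and the 2 genes are close neighbours. Itga2b (chromosome 11, 102314610 to 102331197, minus strand) encodes the alpha chain of the fibrinogen receptor and Itgb3 (chromosome 11, 104469313 to 104531785, plus strand) its beta chain. F2rl2 (chromosome 13, 96466874 to 96472723) lies wholly within Iqgap2 on the other strand, and P2ry12 (chromosome 3, 59020192 to 59066907) wholly within Med12l on the other strand. Gp1bb shares 594 bases with Septin5 on the same strand. The strand setting of the counting is not given in the sources used here, so reads of these genes and their partners may not be told apart.

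The sequences just upstream of 4 members are shown because these genes were higher in WT HPCs than in WT mesoderm, had an ATAC-seq peak, a stretch of accessible chromatin, of WT HPCs within 1000 bases of a start site, and had the smallest adjusted p of the members that did. Each is the 250 bases before the outermost GENCODE vM1 start site, read from the NCBIM37 genome (the mm9 assembly), 5′ to 3′ on the strand of the gene. Capitals mark 3 kinds of motif on either strand, namely GATA (the word AGATAA, the word AGATAG, the word TGATAA or the word TGATAG), ETS (the word CCGGAA or the word CAGGAA) and RUNX (the word TGTGGT, the word TGCGGT, the word CGTGGT or the word CGCGGT), and no marked match overlapped one of another kind.
Itga2b, the CD41 chain, chr11:102331437-102331686, minus strand: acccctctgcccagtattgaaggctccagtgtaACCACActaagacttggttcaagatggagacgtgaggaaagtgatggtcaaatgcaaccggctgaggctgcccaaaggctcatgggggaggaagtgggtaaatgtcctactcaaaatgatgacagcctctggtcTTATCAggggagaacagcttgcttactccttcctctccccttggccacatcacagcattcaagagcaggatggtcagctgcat
P2rx1, an ATP-gated channel of platelets, chr11:72812355-72812604, plus strand: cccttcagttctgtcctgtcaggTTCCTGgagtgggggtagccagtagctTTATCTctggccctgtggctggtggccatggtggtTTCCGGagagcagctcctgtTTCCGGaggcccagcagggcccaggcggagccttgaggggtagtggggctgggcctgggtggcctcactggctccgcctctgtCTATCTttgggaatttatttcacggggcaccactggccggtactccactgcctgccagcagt
Thbs1, thrombospondin of the alpha granule, chr2:117937362-117937611, plus strand: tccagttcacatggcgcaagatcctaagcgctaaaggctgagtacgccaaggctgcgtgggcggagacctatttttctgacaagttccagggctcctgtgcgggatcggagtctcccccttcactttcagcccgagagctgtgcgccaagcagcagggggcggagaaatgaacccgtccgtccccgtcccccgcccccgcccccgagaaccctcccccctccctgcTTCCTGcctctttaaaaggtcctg
Tubb1, the beta tubulin of the platelet rim, chr2:174275946-174276195, plus strand: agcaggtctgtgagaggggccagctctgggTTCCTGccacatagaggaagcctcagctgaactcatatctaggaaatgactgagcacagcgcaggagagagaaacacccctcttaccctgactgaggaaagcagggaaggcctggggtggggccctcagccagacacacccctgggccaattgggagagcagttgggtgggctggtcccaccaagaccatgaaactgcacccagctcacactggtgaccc

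The Itga2b window held 1 GATA and 1 RUNX match, and all 145 bases of an HPC peak (chr11:102331440-102331584) lay in it. The nearest mesoderm peak was 2734 bases from this outermost start site. Itga2b has 10 annotated start sites, and over all of them it had a peak within 1000 bases in both lists. The Tubb1 window held 1 ETS match and had 237 bases inside an HPC peak that spanned the start site, with the nearest mesoderm peak 3175 bases away. In P2rx1 the window held 2 GATA and 3 ETS matches, and peaks of both stages lay in it, with 195 bases of the HPC peak and 76 of the mesoderm peak. Thbs1 had 1 ETS match, 125 bases of an HPC peak and 6 bases of a mesoderm peak. Over all members, 10 of 33 windows (30.3%) held a GATA match against 24.8% of the windows of 20090 genes, 14 (42.4%) an ETS match against 35.0%, and 7 (21.2%) a RUNX match against 29.4%. These matches describe letters in a window and are not measured binding sites.

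In WT mesoderm the programme was nearly silent. Of the 33 members, 14 had no count in any of the 3 WT mesoderm libraries, among them the whole von Willebrand factor receptor (Gp1ba, Gp1bb, Gp9 and Gp5), the chemokines Pf4 and Ppbp, the collagen receptor Gp6 and the tubulin Tubb1. The members of any mesoderm library added up to between 5.72 and 26.6 CPM. In HPC libraries the same sum was 159 to 1252 CPM, and 30 to 33 members had a count. The map of levels by library shows this step in every genotype.

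**Figure D1:**
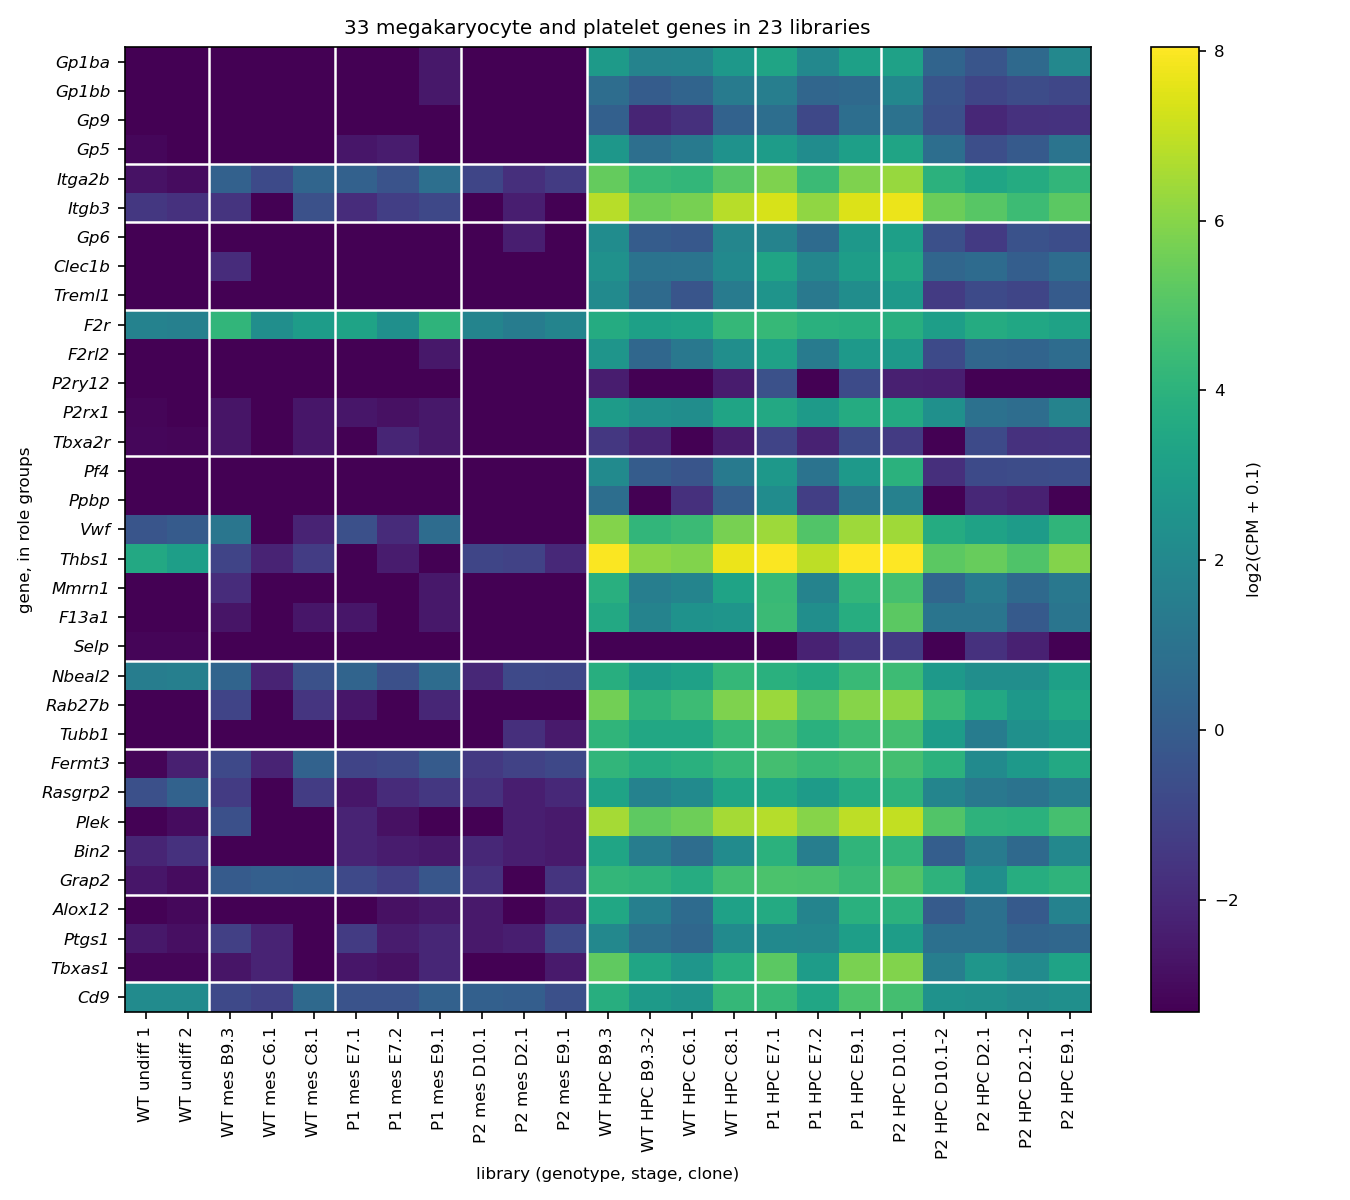
Levels of the 33 members (rows, in role groups separated by white lines) in 23 libraries (columns, separated by genotype and stage), as log2(CPM + 0.1) in colour. HPC columns are brighter than mesoderm columns for most of the rows, F2r is visible at every stage, and P2ry12, Tbxa2r and Selp stay dark. Ppbp is at 0 CPM in the HPC libraries WT B9.3-2, P2-CTCF-KO D10.1-2 and P2-CTCF-KO E9.1.

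To ask how the programme changed from mesoderm to HPCs, WT libraries were compared in a fit over 9 WT libraries with edgeR's quasi-likelihood test and Benjamini-Hochberg adjustment. A call required that the adjusted p be below 0.05 and that the log2 fold change exceed 1 in size. Of the 33 members 30 passed the filter on low counts, 29 were called higher, 0 lower, and F2r was not called. Over the 12899 genes tested, 10.8% were called higher and 12.5% lower. Most members passed the filter only through their HPC counts and so had to differ, and the count over them is no support. The 7 members that also passed in a fit of mesoderm libraries alone were Itga2b, F2r, Vwf, Nbeal2, Fermt3, Grap2 and Cd9, and of these 6 were called higher. The 6 include Itga2b, the sort marker, and Vwf, which had 36, 0 and 2 counts in mesoderm B9.3, C6.1 and C8.1. The share called higher among all genes that passed there was not counted, so no conclusion is drawn from the 6. The median fitted log2 fold change was 7.85 over the 30 members and -0.01 over all genes. With the 12 tested members that were at 0 in mesoderm set to the bound from 3 counts per library, the median was 4.55. In bulk samples, fewer cells of a type and less RNA per cell cannot be told apart.

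The receptor for von Willebrand factor tethers platelets to the vessel wall. Gp1ba, its ligand-binding chain, was at 7.22, 3.33, 3.45 and 6.66 CPM in the WT HPC libraries B9.3, B9.3-2, C6.1 and C8.1 but 0 in WT mesoderm. It was thus at least 21.6-fold higher (adjusted p = 0.00011). Gp5 was at 6.36, 1.66, 2.47 and 5.50 CPM, at least 16.7-fold higher (adjusted p = 0.000407). Gp1bb had 68 and Gp9 28 counts over the 4 libraries, which set bounds of 6.48-fold and 2.55-fold. All 4 chains were called higher, although Gp9 had 1 and 2 counts in B9.3-2 and C6.1, below the floor of 3 counts.

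The fibrinogen receptor joins platelets to each other. Itgb3 was at 113, 44.3, 52.1 and 112 CPM in the 4 HPC libraries and at 0.232, 0 and 0.600 CPM in the mesoderm libraries B9.3, C6.1 and C8.1, a log2 fold change of 7.96 ± 0.64 (SE, adjusted p = 1.55e-05). Itga2b was at 40.9, 20.2, 18.5 and 33.9 CPM against 1.04, 0.486 and 1.2 CPM (4.88 ± 0.40, adjusted p = 1.71e-05), as the sort requires. Itga2b was thus above 0 in every mesoderm library, where no sort on CD41 is named, and Itgb3 was not.

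Among the receptors that signal through tyrosine motifs, Clec1b (CLEC-2, the podoplanin receptor) was at 5.24, 1.92, 1.97 and 4.08 CPM. In mesoderm it had 3 counts in all, which gives a ratio of 48.9 (95% counting interval 16.4 to 240). Treml1 was at 4.29, 1.41, 0.690 and 2.58 CPM, at least 9.37-fold higher. Their adjusted p were 0.000462 and 0.00205. Gp6, the collagen receptor, had 111 counts in HPCs and none in WT mesoderm, at least 10.2-fold higher.

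The receptors of soluble agonists were the most mixed group. F2r, the thrombin receptor PAR1, was at 12.8, 8.71, 9.47 and 18.7 CPM in WT HPCs and at 17.6, 4.74 and 7.62 CPM in WT mesoderm. The groups overlapped and the log2 fold change was 0.30 ± 0.39 (adjusted p = 0.633). Its relative F2rl2 (PAR3), the thrombin cofactor of mouse platelets, was at 6.01, 1.28, 2.27 and 4.83 CPM against 0, at least 15.02-fold higher (adjusted p = 0.000829). P2rx1 was at 7.39, 5.12, 4.64 and 9.83 CPM in HPCs, with 2 counts in mesoderm, a ratio of 147 (95% counting interval 40.4 to 1223, adjusted p = 1.8e-05). The ADP receptor P2ry12 had 2 counts over the WT HPC libraries and the thromboxane receptor Tbxa2r had 5, and neither was tested.

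Of the alpha granule genes, Thbs1 was the highest. It was at 253, 68.0, 58.5 and 208 CPM in WT HPCs and at 0.406, 0.121 and 0.300 CPM in mesoderm, a log2 fold change of 8.91 ± 0.74 (adjusted p = 1.84e-05). F13a1, the A chain of clotting factor XIII, was at 11.5, 3.33, 5.52 and 5.91 CPM, with 2 counts in mesoderm (ratio 145, 95% counting interval 39.9 to 1206, adjusted p = 5.76e-05). Vwf was at 61.1, 17.9, 21.5 and 52.5 CPM against 2.09, 0 and 0.120 CPM (5.51 ± 0.85). Pf4 was at 4.21, 0.896, 0.690 and 2.42 CPM and Ppbp at 1.63, 0, 0.197 and 0.999 CPM, both called higher. Ppbp was below the floors of 0.384 and 0.296 CPM in B9.3-2 and C6.1 and so not resolved there. Selp, which encodes the P-selectin of the granule membrane, had no count in WT HPCs and at most 3 counts in any library.

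Tubb1 and Rab27b led the genes of granule and platelet formation. Tubb1 was at 17.4, 11.0, 11.2 and 19.7 CPM against 0, at least 61.9-fold higher and the highest bound among the members (adjusted p = 1.92e-05). Rab27b, a small GTPase of granule transport, was at 48.5, 16.5, 21.9 and 58.0 CPM against 0.406, 0 and 0.240 CPM (7.14 ± 0.68, adjusted p = 4.95e-05). Nbeal2, mutated in gray platelet syndrome, was already counted in every mesoderm library and rose by 4.14 ± 0.48.

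The cytoplasmic signalling genes had the steadiest members. Grap2 (the adaptor Gads) was at 18.5, 16.6, 13.02 and 24.2 CPM against 0.870, 0.972 and 0.960 CPM, a log2 fold change of 4.28 ± 0.30 and the smallest adjusted p of the members (1.23e-05). Plek (pleckstrin, a substrate of protein kinase C) was at 90.4, 37.6, 46.2 and 91.0 CPM against 0.580, 0 and 0 CPM (8.15 ± 0.78, adjusted p = 3.48e-05). Fermt3 (kindlin-3, an integrin activator), Rasgrp2 (an exchange factor for Rap1) and Bin2 were called higher too.

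The eicosanoid enzymes make the lipid agonists of platelets. Tbxas1 (thromboxane synthase) was at 38.5, 10.2, 6.12 and 13.99 CPM, with 2 counts in mesoderm (ratio 384, 95% counting interval 106 to 3175, adjusted p = 9.11e-05). Alox12 was at 11.0, 2.94, 1.48 and 9.08 CPM, at least 25.6-fold higher (adjusted p = 0.000918). Ptgs1 (cyclooxygenase 1) rose by 4.07 ± 0.72. The tetraspanin Cd9 was at 14.002, 7.30, 5.82 and 18.7 CPM against 0.464, 0.364 and 1.38 CPM (3.87 ± 0.52, adjusted p = 0.00028).

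Per kilobase of gene span, Thbs1 was again at the top in WT HPCs, at 9.63 ± 6.45 CPM per kilobase (mean ± SD, n = 4). Pf4, the shortest member, followed at 2.16 ± 1.72, then Tubb1 at 1.91 ± 0.56, Plek at 1.77 ± 0.76 and Itga2b at 1.71 ± 0.65. These 4 neighbours differed by less than their SD. Among the lowest were Gp6 at 0.0846 ± 0.0656 and F13a1 at 0.0359 ± 0.0190 CPM per kilobase. In the plot of levels per length, B9.3 and C8.1 lie to the right of B9.3-2 and C6.1 for most genes.

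**Figure D2:**
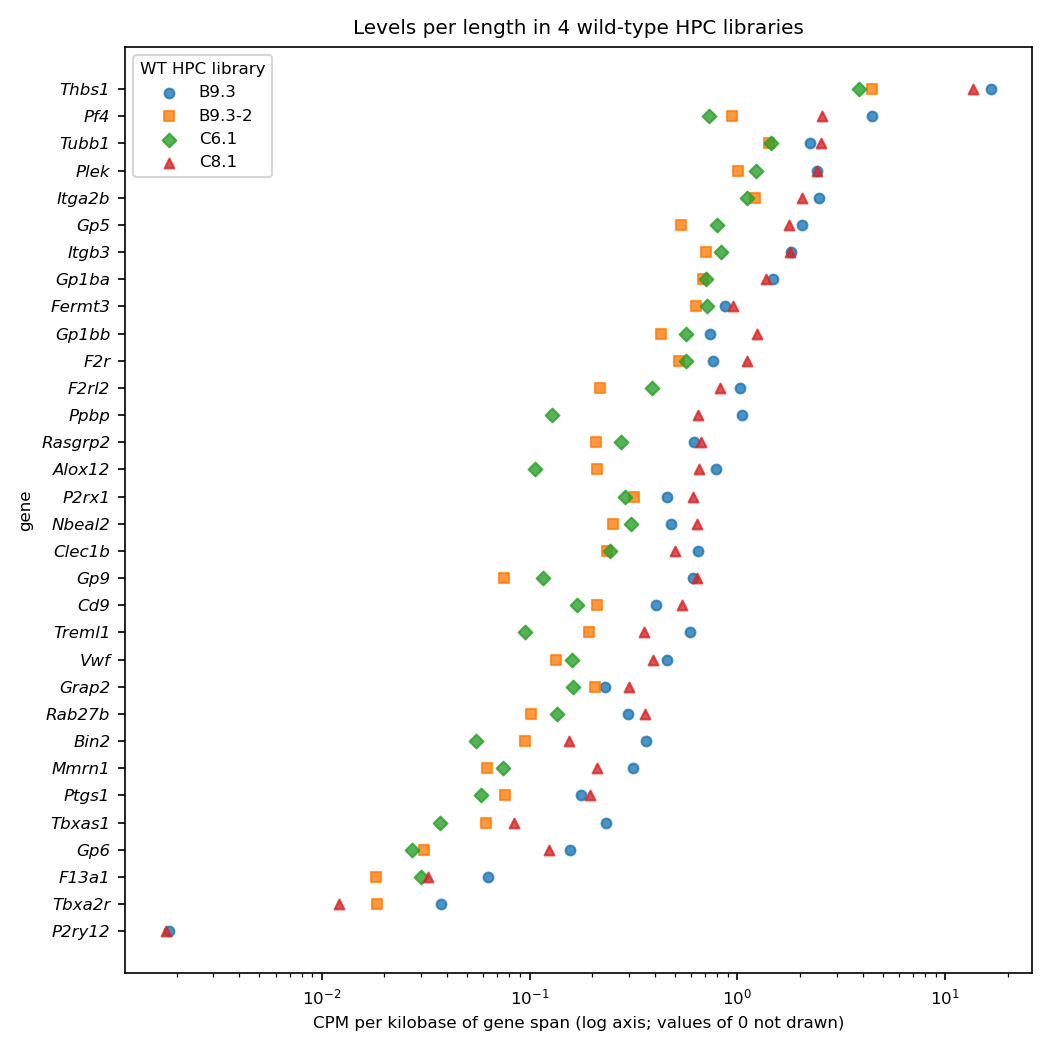
CPM per kilobase of gene span (log axis) of the 32 members with a count in WT HPCs, with a marker for each of the 4 WT HPC libraries, ordered by the mean. Thbs1 is at 3.83 to 16.6 CPM per kilobase, and for most genes the libraries B9.3 and C8.1 lie above B9.3-2 and C6.1.

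In undifferentiated mESCs the members were sparse as well, and the highest were Thbs1 (11.4 and 8.23 CPM), Cd9 (4.33 and 4.34 CPM), F2r (3.22 and 2.97 CPM) and Nbeal2 (2.76 and 2.86 CPM). From mESCs to mesoderm, 30 members were tested, 9 of them without a count at either stage, and 6 were called higher and 3 lower, against 10.7% higher and 13.7% lower of all genes. Thbs1 fell by 5.01 (SE 0.72, adjusted p = 0.000628), Cd9 fell by 2.47 (SE 0.55, adjusted p = 0.00716) and Nbeal2 fell by 2.01 (SE 0.51, adjusted p = 0.0141) on the log2 scale, and all 3 were called higher again in HPCs. The genes called higher were Itga2b (4.44 ± 0.56, adjusted p = 0.000311), Grap2 (4.19 ± 0.42, adjusted p = 0.000133), Fermt3 (3.66 ± 0.77, adjusted p = 0.00524), F2r (1.71 ± 0.49, adjusted p = 0.0236) and Plek (3.72 ± 1.27, adjusted p = 0.0476). Rab27b was also called (adjusted p = 0.00896), with 11 counts in mesoderm and none in mESCs. The mESC arm is 1 sample sequenced as 2 technical replicates, so no biological spread of mESCs was measured and these p-values rest partly on technical spread. Plek lost its call without mesoderm B9.3 (log2 fold change -2.61, adjusted p = 0.655), without undifferentiated replicate 1 or 2 (adjusted p = 0.237 and 0.0903) and in a fit of all 23 libraries (adjusted p = 0.0704), and without undifferentiated replicate 1 the calls higher fell to 2, Itga2b and Grap2. F2r (adjusted p = 0.134, 0.164 and 0.0618) lost its call without undifferentiated replicate 1, undifferentiated replicate 2 or mesoderm B9.3, Nbeal2 (adjusted p = 0.0718, 0.0752 and 0.058) without either undifferentiated replicate or mesoderm C8.1, Fermt3 (adjusted p = 0.0525 and 0.0509) without undifferentiated replicate 1 or C8.1, and Rab27b (adjusted p = 0.0602) without undifferentiated replicate 1. The Methods name a ribosomal depletion for the mESC libraries and none for the later stages, so stage and library preparation cannot be told apart here.

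Chromatin accessibility was compared at the members' start sites with the ATAC-seq peak lists of WT mesoderm (76766 peaks) and WT HPCs (29037 peaks), each called by the authors on merged libraries, so there is no replicate check. In the HPC list 13 of 33 members (39.4%) had a peak within 1000 bases of an annotated start site, against 41.9% of 20093 genes. In the mesoderm list 20 members (60.6%) did, against 61.7% of all genes. The members thus had peaks about as often as other genes at both stages. A total of 11 members (33.3%) had a peak in both lists, against 40.8% of all genes, and 9 (27.3%) in mesoderm alone, against 20.8%. Neither list held one for 11 members (33.3%), against 37.3% of all genes, and 2 members had one in HPCs alone. The pair with a peak in HPCs alone was Tubb1 and Mmrn1 (multimerin of the alpha granule), which is 6.06% of the members, whereas 210 of all genes (1.05%) were of this kind. Pf4, silent by counts in mesoderm, had a mesoderm peak across its start, and Gp1ba and F2rl2 had one in mesoderm and none in HPCs. Within the gene spans the members held 29 HPC peaks in 13 genes and 60 mesoderm peaks in 26 genes, or 2.3 and 4.76 peaks per 100 kb, against 1.48 and 3.69 over all genes. By the Methods these lists came from a derived line, E14-TG2a-RV, whereas the labels give E14-TG2a, and the lists hold positions alone.

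**Figure D3:**
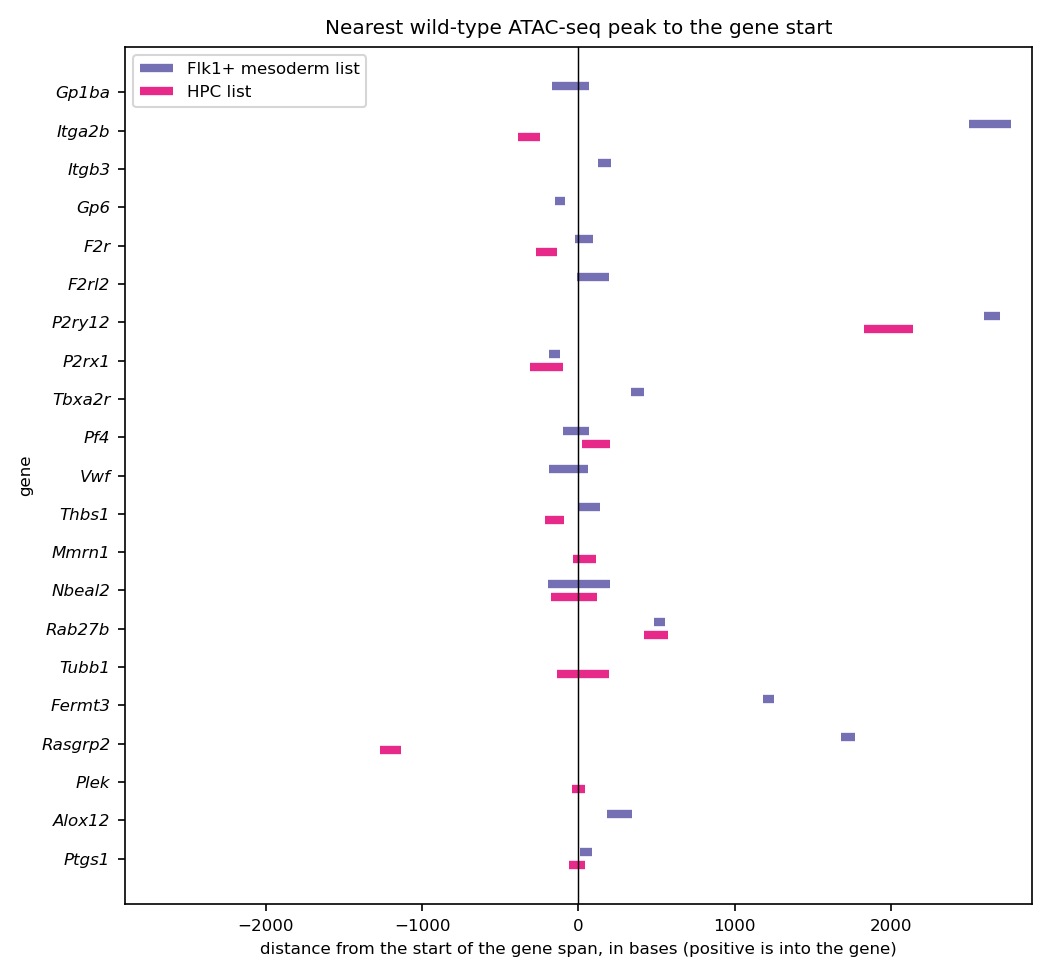
Position of the nearest ATAC-seq peak of WT Flk1+ mesoderm (purple) and WT HPCs (pink) relative to the start of the gene span, in bases, for the 21 members with a peak within 2900 bases. Tubb1, Mmrn1 and Plek have an HPC peak on the gene start and no mesoderm peak within this distance.

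Levels in HPCs varied strongly between libraries of the same genotype, and the members moved together. The summed level was 850, 313, 324 and 777 CPM in WT B9.3, B9.3-2, C6.1 and C8.1. In P1-CTCF-KO it was 1071, 503 and 1097 CPM in E7.1, E7.2 and E9.1. In P2-CTCF-KO it was 1252 CPM in D10.1 but 247, 186, 159 and 267 CPM in D10.1-2, D2.1, D2.1-2 and E9.1. The genotypes overlapped, since P2-CTCF-KO held the highest and the lowest library. Of the 19 members with enough counts in every HPC library, all 19 were above their own mean over the 12 libraries in B9.3, C8.1, E7.1, P1-CTCF-KO E9.1 and D10.1, and at most 1 was above it in B9.3-2, C6.1, D10.1-2, D2.1, D2.1-2 and P2-CTCF-KO E9.1. P1-CTCF-KO E7.2 lay between, with 15 above.

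The repeat libraries gave this spread within a clone. In B9.3-2, all 25 members with enough counts were lower than in B9.3, by a median log2 difference of -1.45, where the median of 5813 genes was 0.04. In D10.1-2, all 22 were lower than in D10.1, with a median of -2.24 against -0.01 over 5922 genes. In D2.1-2, 15 of 20 were lower than in D2.1, with a median of -0.23 against 0.18 over 6200 genes. Itga2b followed, at 79.3 CPM in D10.1 and 15.8 CPM in D10.1-2, although both were sorted on CD41. Tbxas1 was at 60.2 and 2.79 CPM, Pf4 at 15.4 and 0.192 CPM and F13a1 at 35.9 and 2.02 CPM in this pair. F2r moved least of these, at 13.7 and 8.27 CPM.

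Markers of other cells also differed between these libraries. The 14 erythroid genes, a list that includes Alas2 and the embryonic globins, summed to 119 CPM in B9.3 and 270 in B9.3-2, to 133 in D10.1 and 304 in D10.1-2, and to 55.2 in D2.1 and 335 in D2.1-2. In each pair the erythroid sum was thus higher in the repeat. Over the 12 HPC libraries the sum ranged from 119 to 270 CPM in WT, 96.6 to 332 in P1-CTCF-KO and 55.2 to 348 in P2-CTCF-KO, and all 14 genes were counted in each library. The 8 stromal and smooth muscle genes summed to 101 CPM in WT B9.3, led by Col1a1, and to 2.17 to 4.04 CPM in the other WT libraries, to 4.03 to 28.0 in P1-CTCF-KO and to 1.25 to 27.1 in P2-CTCF-KO. The 12 endothelial genes reached 111 CPM in D2.1 against 18.5 to 63.6 CPM in the other HPC libraries. The 11 myeloid genes of the table summed to at most 3.69 CPM, with Elane at 0 in every HPC library, and the 8 mast cell genes to at most 0.128 CPM. The gate for HPCs left out Ter119+ and CD45+ cells, and CD45 is the protein of Ptprc in the myeloid list. The part of these cell types in the members' levels was not tested.

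**Figure D4:**
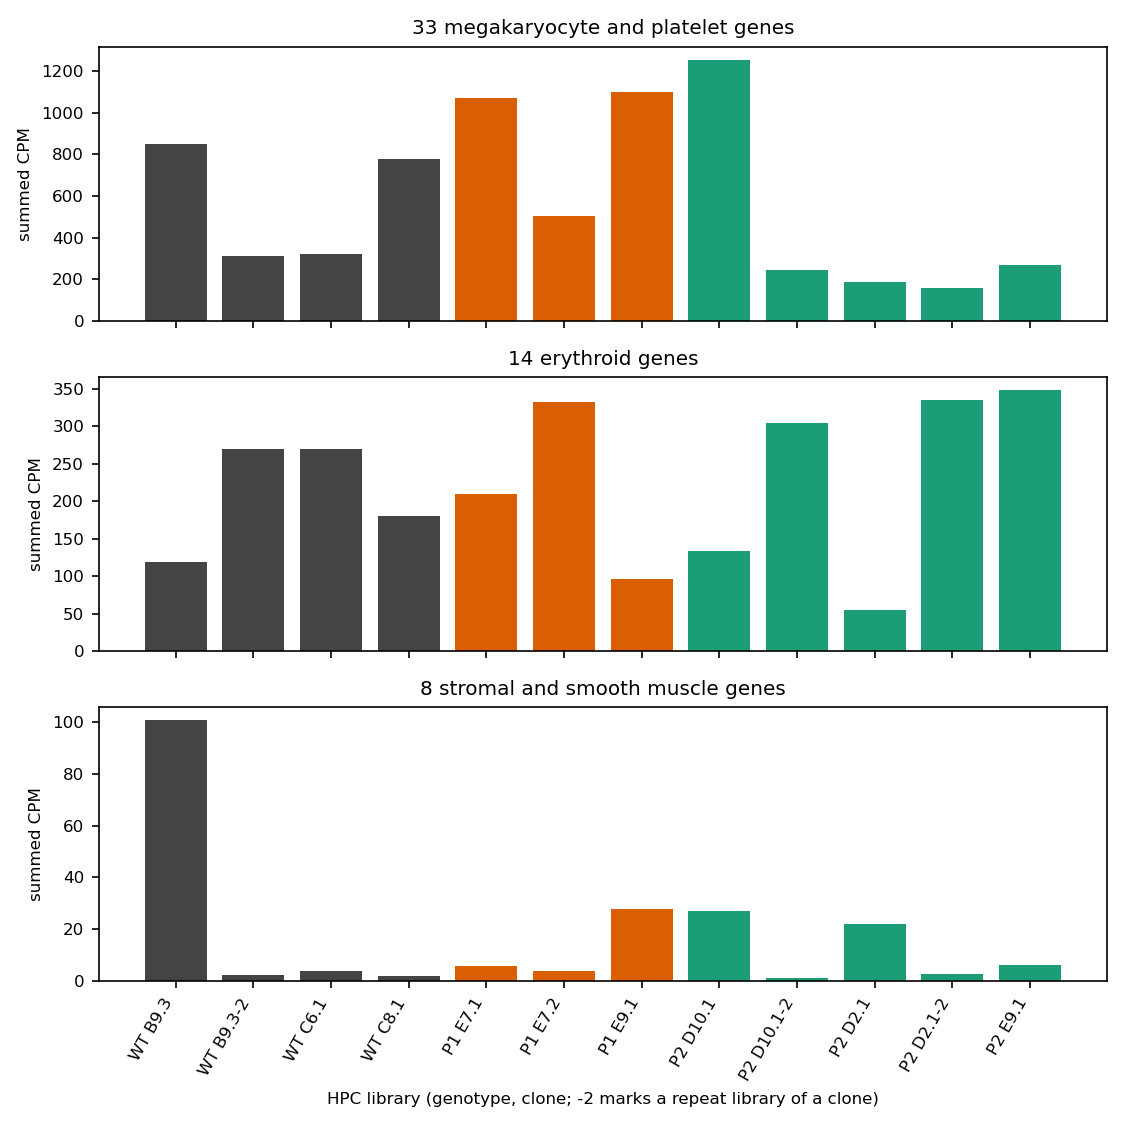
Summed CPM of the 33 members, 14 erythroid genes and 8 stromal and smooth muscle genes (3 panels) in each of the 12 HPC libraries, in grey for WT, orange for P1-CTCF-KO and green for P2-CTCF-KO. D10.1 is at 1252 CPM of members and 133 CPM of erythroid genes, and its repeat D10.1-2 at 247 and 304 CPM.

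The comparison of genotypes in HPCs asked whether loss of either CTCF site altered these genes. In a fit of 12 HPC libraries none of the 30 tested members was called in P2-CTCF-KO or in P1-CTCF-KO. Across all 7422 genes tested 0% were called higher and 0% lower in either genotype. At an unadjusted p under 0.05 there were 0 members for each genotype, and 145 and 260 of all genes. DESeq2 also called 0 members. Both comparisons share the 4 WT libraries.

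In P2-CTCF-KO HPCs 27 of 30 members had a lower and 3 a higher estimate, with a median log2 fold change of -0.33. The smallest p were those of Tubb1 (-0.63 ± 0.50), Gp1ba (-0.71 ± 0.62) and Thbs1 (-0.76 ± 0.66), each with an adjusted p of 1 in edgeR's test. Without D10.1 all 30 estimates were below 0 and the median was -1.56, but the smallest adjusted p of a member was 0.364, with 25 members at an unadjusted p under 0.05. Without WT B9.3 and D2.1, the HPC libraries with the highest stromal and endothelial sums, the median was 0.11, with 17 estimates above 0 and 13 below. Leaving out other single libraries also moved it, to between -0.11 and -0.51.

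In P1-CTCF-KO HPCs all 30 estimates were above 0, with a median of 0.75. The smallest p were those of Ptgs1 (0.95 ± 0.65), Clec1b (1.10 ± 0.78) and Bin2 (1.29 ± 0.93), each with an adjusted p of 0.91 in edgeR's test. Clec1b, for example, was at 9.94, 3.58 and 7.86 CPM against 1.92 to 5.24 CPM in WT. Without E7.1 or without E9.1, 1 of the 30 estimates was below 0. The median was 0.50 without E9.1 and 1.08 without E7.2, and no member was called. Since the members move together between libraries, their shared sign counts few independent observations.

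**Figure D5:**
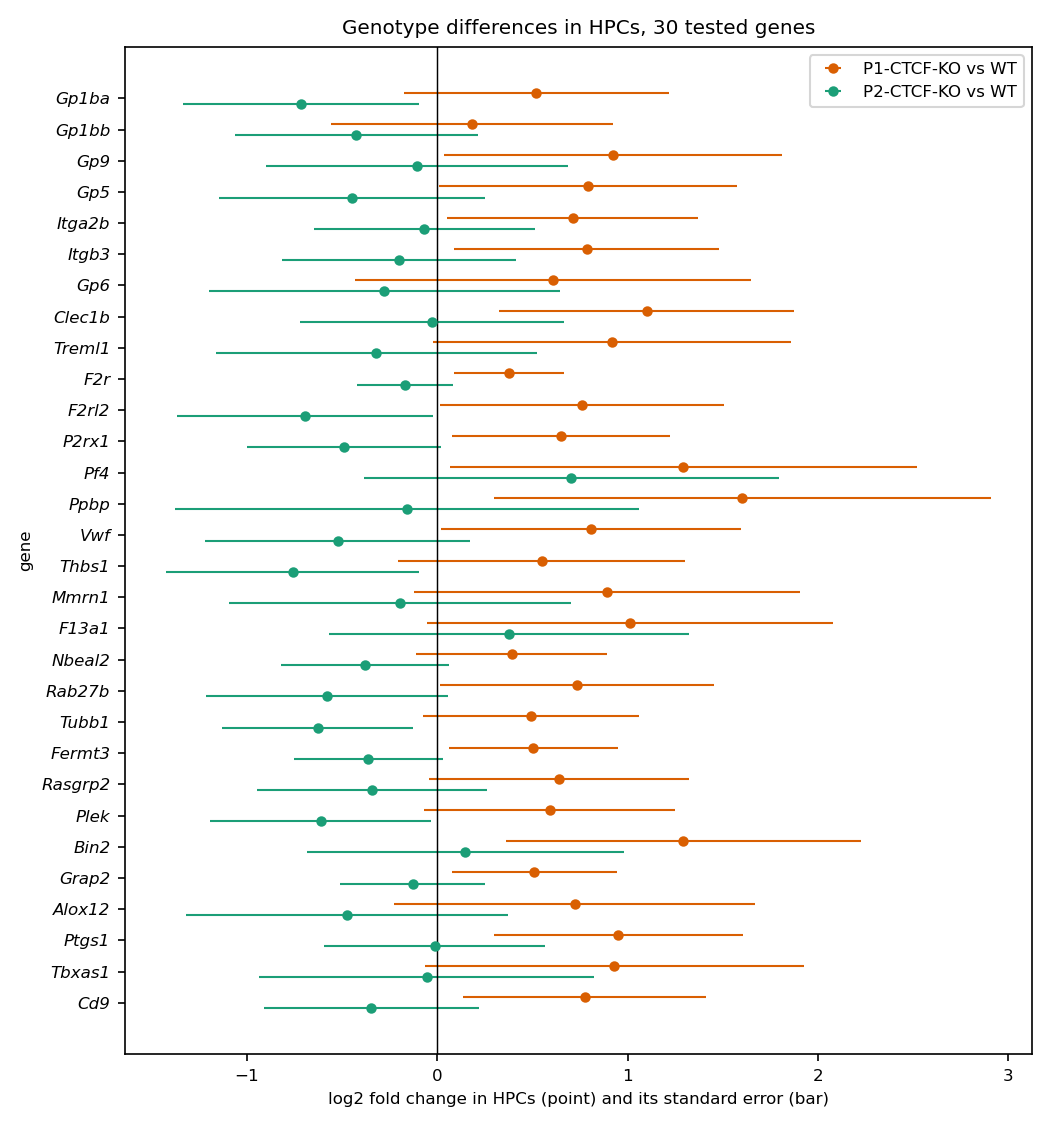
Log2 fold change (points) with its standard error (bars) of the 30 tested members in P1-CTCF-KO (orange) and P2-CTCF-KO (green) HPCs against WT HPCs. All orange points lie above 0 and 27 of 30 green points below it, and no member was called.

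In mesoderm, 7 members could be tested and none was called in either genotype, in a fit of 9 libraries. Of 8778 genes, 0% were called higher and 0.0342% lower in P2-CTCF-KO, and 0% and 0% in P1-CTCF-KO. Grap2 was at 0.207, 0 and 0.222 CPM in P2-CTCF-KO D10.1, D2.1 and E9.1 against 0.870, 0.972 and 0.960 CPM in WT. Its log2 fold change was -2.51 ± 0.61 (adjusted p = 0.135). F2r was at 3.37, 2.63 and 3.41 CPM against 17.6, 4.74 and 7.62 CPM (-1.66 ± 0.51, adjusted p = 0.173) and Itga2b at 0.413, 0.188 and 0.296 CPM against 1.04, 0.486 and 1.2 CPM (-1.58 ± 0.53, adjusted p = 0.2). Counts were few: in P2-CTCF-KO D10.1, D2.1 and E9.1, Grap2 had 3, 0 and 3 and Itga2b 6, 2 and 4. The Itga2b level in D2.1 was below the floor of 0.281 CPM of that library. How often groups separate in this way over all genes was not counted. Vwf had 38 counts in WT and 0 in P2-CTCF-KO mesoderm, but 36 of them came from B9.3.

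Members at an unadjusted p under 0.05 numbered 4 in P2-CTCF-KO and 0 in P1-CTCF-KO mesoderm, and over all genes 1408 and 168. Calls depended on the settings: F2r was called lower by DESeq2 (adjusted p = 0.0465, the only member that kept an adjusted p there), and F2r, Vwf and Grap2 were called lower without the filter on low counts. Beside the members, all 10 tested endothelial genes had estimates below 0, 9 of them at an unadjusted p under 0.05 and none called. The endothelial sum was 28.3 to 33.5 CPM in P2-CTCF-KO, 34.1 to 156 in WT and 37.7 to 119 in P1-CTCF-KO mesoderm. Kdr, the gene of the sort marker Flk1, was at 24.2 to 29.8, 16.9 to 37.8 and 25.6 to 39.1 CPM in these groups. Most of the P2-CTCF-KO sum was thus Kdr, and the other endothelial genes added little there. The part of the endothelial genes in the members' values was not tested. In P1-CTCF-KO mesoderm Grap2 was at 0.470, 0.329 and 0.721 CPM (-0.90 ± 0.48), Nbeal2 differed by 0.62 ± 0.58 and Itga2b by 0.23 ± 0.43, each with an adjusted p of 1.

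The members rose from mesoderm to HPCs in both mutant genotypes too. In a fit of 21 libraries, 29 of 30 tested members were called higher and 0 lower in P1-CTCF-KO, against 16.6% higher and 16.1% lower of 9170 genes. In P2-CTCF-KO, 29 were called higher and 0 lower, against 16.5% and 11.7%. The same filter applies, so these counts describe the members and support nothing. The median fitted log2 fold change was 7.75 and 7.13, or 6.22 and 4.89 with the members at 0 in mesoderm set to their bounds.

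In P1-CTCF-KO, Itgb3 rose by 8.68 ± 0.98, Vwf by 6.49 ± 1.21, Grap2 by 5.65 ± 0.56, Fermt3 by 5.30 ± 0.58, Tbxas1 by 8.61 ± 1.41, Ptgs1 by 4.95 ± 0.87 and Cd9 by 4.61 ± 0.72 on the log2 scale. Their adjusted p in edgeR's test ranged from 1.72e-06 for Grap2 to 0.000599 for Vwf. Itga2b, the sort marker, rose by 5.33 ± 0.75. Tubb1 was at least 124-fold, Clec1b at least 43.1-fold and Treml1 at least 26.0-fold higher, with no count in mesoderm. With 1 to 3 counts in mesoderm, Gp1ba had a ratio of 390 (95% counting interval 68.9 to 15505), Gp5 of 127 (42.4 to 621), P2rx1 of 192 (65.0 to 940), F2rl2 of 317 (55.9 to 12629), Thbs1 of 5709 (1580 to 47158) and Rab27b of 1036 (354 to 5033). All of these were called.

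In P2-CTCF-KO, Grap2 rose by 6.63 ± 0.63, Fermt3 by 5.05 ± 0.60, Thbs1 by 8.04 ± 0.99, Nbeal2 by 4.72 ± 0.68, Ptgs1 by 3.65 ± 0.85 and Cd9 by 3.35 ± 0.68, with adjusted p in edgeR's test from 9.43e-07 for Grap2 to 0.00253 for Ptgs1. Itga2b rose by 6.38 ± 0.83. Vwf was at least 113-fold, Rab27b at least 102-fold, P2rx1 at least 20.3-fold, Clec1b at least 13.8-fold, Gp1ba at least 13.5-fold, Gp5 at least 12.6-fold, F2rl2 at least 9.47-fold and Treml1 at least 7.73-fold higher. With 1 count in mesoderm, Itgb3 had a ratio of 2648 (95% counting interval 475 to 104606) and Tbxas1 of 626 (112 to 24750). These bounds and ratios take all P2-CTCF-KO HPC libraries together, and D10.1 raised them. Treml1 was at 7.08 CPM in D10.1 against 0.288 to 0.869 CPM in the others. Clec1b was at 11.1 against 0.951 to 1.52 CPM and F2rl2 at 6.79 against 0.481 to 1.52 CPM. Bounds without D10.1 were not computed. Ppbp was the tested member not called (adjusted p = 0.0975).

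F2r differed in its call between genotypes. It was called higher in P2-CTCF-KO (1.77 ± 0.42, adjusted p = 0.00269) but not in P1-CTCF-KO (0.61 ± 0.42, adjusted p = 0.265) or WT. The difference itself did not pass: the stage effect of F2r in P2-CTCF-KO minus that in WT was 1.5 ± 0.56 (adjusted p = 0.484). Over the members, 0 such interactions were called in P2-CTCF-KO, where 0.0218% of all genes were higher and 0% lower, and 0 in P1-CTCF-KO, where 0% were higher and 0% lower. Next to F2r, Grap2 (2.39 ± 0.82, adjusted p = 0.429) and Vwf (5.82 ± 2.86, adjusted p = 0.734) had the smallest adjusted p in P2-CTCF-KO. In P1-CTCF-KO the smallest p belonged to Thbs1, Grap2 and Rab27b, at log2 differences of 3.34 ± 1.63, 1.41 ± 0.70 and 2.74 ± 1.68 and an adjusted p of 0.999. In numbers of genes at an unadjusted p under 0.05, the interactions gave 643 for P2-CTCF-KO and 306 for P1-CTCF-KO, with 2 and 0 members among them.

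Related lists were read beside the members. Of 20 regulators of megakaryocytes, 13 were called higher and 1 (Ets1) lower from WT mesoderm to WT HPCs, against 10.8% higher and 12.5% lower of all genes. Genes of these lists that passed the filter only through their HPC counts had to differ here too. The smallest adjusted p were those of Cbfa2t3, a corepressor partner of Tal1 (2.67 ± 0.21, adjusted p = 1.52e-05), and Gata1 (6.15 ± 0.49, adjusted p = 2.17e-05). Of 22 further genes of platelet activation, 20 were tested and 17 called higher, led by the ADP receptor P2ry1 (5.46 ± 0.47), the kinase Prkcq (7.47 ± 0.66) and the GTPase Rap1b (3.33 ± 0.35). In WT mesoderm B9.3, C6.1 and C8.1 the counts were 1, 0 and 1 for Gata1, 3, 1 and 2 for P2ry1, and 5, 0 and 1 for Prkcq. Their fitted fold changes thus rest on few mesoderm counts. The sum of the platelet activation genes ran alongside that of the members over the HPC libraries, from 121 CPM in D2.1-2 to 906 CPM in E7.1, with 822 in D10.1 and 224 in D10.1-2.

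All 14 erythroid genes were called higher in WT HPCs, where 10.8% of all genes were called higher and 12.5% lower. Among them were the embryonic globins Hba-x and Hbb-y at fitted log2 fold changes of 9.55 and 8.17. Hba-x had 2, 0 and 1 and Hbb-y 1, 0 and 0 counts in WT mesoderm B9.3, C6.1 and C8.1. Of the endothelial genes 4 were called lower and 0 higher of 9 tested, led by Kdr (-2.04), Cdh5 (-3.18) and Eng (-1.99). Kdr encodes Flk1, the marker of the mesoderm sort, so its fall is a property of the sort and not a finding. In WT mesoderm B9.3, C6.1 and C8.1, Cdh5 had 473, 3 and 43 counts and Eng 104, 6 and 28. Cdh5 was at 0.364 to 27.4 CPM in WT mesoderm and 0.666 to 2.43 CPM in WT HPCs. Eng was at 0.729 to 6.03 and 0.197 to 1.08 CPM, so both ranges overlapped. The pluripotency list had 3 of 8 lower (Tdgf1, Klf4 and Esrrb), the stromal list 0 of 7 tested, and the myeloid list 1 of 2 tested (Spi1). Between genotypes, Cbfa2t3 was the gene of these lists called in mesoderm (-2.78 ± 0.31 in P2-CTCF-KO, adjusted p = 0.0224) and in the interaction (2.64 ± 0.34, adjusted p = 0.00214), and the next regulators in mesoderm, Fli1 (-3.59 ± 0.93) and Etv6 (-1.25 ± 0.35), had adjusted p of 0.138 and 0.152. Without WT C8.1, or without any of the 3 P2-CTCF-KO mesoderm libraries, 0 genes were called lower in P2-CTCF-KO mesoderm, Cbfa2t3 included.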

How the data were processed

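Poly(A)-minus RNA from 23 libraries was measured. The authors aligned reads to mm9 with STAR, removed duplicates with picard and counted them over exons and introns with featureCounts; the annotation and strand setting are not given in the sources used here. The deposited values are raw read counts per gene, without normalization. The deposited ATAC-seq lists hold peak positions that the authors called with MACS2 on merged libraries.

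Counts were tested with edgeR 4.0.16 in R 4.3.3 (TMM, filterByExpr with a minimum count of 10, quasi-likelihood test, Benjamini-Hochberg adjustment over all genes tested). Calls were limited to an adjusted p below 0.05 with a log2 fold change above 1 in size. Groups came from the labels. DESeq2 1.42.0, other size factors, no filter, summed clones and leaving out each library were alternatives. The procedure was tested on simulated data. Bounds, counting intervals (95%, exact) and floors (3 counts) cover counting error only.

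The members and lists were chosen with earlier results of these data known. Each called member has its statistics; with over 15 calls, those with the smallest adjusted p, 2 per role group, are given in full, and with under 3 calls, the 3 smallest. Other members are described by levels, counts or calls. Of the other lists, the 3 smallest are named, except for a few genes that are not reported here. Mesoderm and HPC libraries share clones by their labels, but no source used here ties them to 1 differentiation, and their deviations from the group means correlated at -0.07 to 0.18 over 9170 genes. P-values measure the spread between clones and repeat libraries together, and for mESCs that between technical replicates of 1 sample. Start sites and sequences came from GENCODE vM1 and NCBIM37. A CTCF peak list of another cell line was not used here.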

Additional observations from a re-analysis of the deposited data

Results flagged for a closer look

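In groups of 4 or 5 libraries, 73 values were examined for a library set apart from the rest by Dixon's criterion, and 28 were. Chance alone sets apart about 5% of groups, and the members are not independent of each other.

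In 27 of the 28, the P2-CTCF-KO HPC library D10.1 stood above the other 4 of its group. Among the receptors it held Gp1bb at 3.78, Gp9 at 1.84, Gp5 at 9.89, Itga2b at 79.3, Itgb3 at 211, Gp6 at 8.34, Clec1b at 11.1, Treml1 at 7.08 and F2rl2 at 6.79 CPM. Itga2b was at 10.05 to 17.8 CPM in the others. Among the granule genes it held Pf4 at 15.4, Ppbp at 3.10, Vwf at 87.0, Thbs1 at 264, Mmrn1 at 25.4, F13a1 at 35.9, Nbeal2 at 22.2 and Rab27b at 71.3 CPM, where Pf4 was at 0.192 to 0.543 CPM in the others. Tubb1 was at 25.3, Rasgrp2 at 16.5, Plek at 128, Bin2 at 17.8, Alox12 at 15.7, Ptgs1 at 7.85, Tbxas1 at 60.2 and Cd9 at 25.3 CPM. The sum of the members was 1252 CPM against 159 to 267 CPM, and that of the platelet activation genes 822 CPM against 121 to 224 CPM. Its repeat D10.1-2 lay with the other libraries.

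The remaining value was the stromal and smooth muscle sum of the WT HPC library B9.3, at 100.7 CPM against 2.17 to 4.04 CPM in the other WT HPC libraries.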

How the results depend on the processing

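From mESCs to mesoderm, 5 members were called lower without the filter on low counts, and leaving out single libraries gave 2 to 6 called higher and 2 to 3 lower, with 2 and 4 higher without undifferentiated replicates 1 and 2. In P2-CTCF-KO mesoderm, 1 member was called lower by DESeq2 and 3 without the filter, where 27 members were tested instead of 7. The direction changed for Plek from mESCs to mesoderm without WT B9.3 (-2.61) and for Itga2b in P1-CTCF-KO mesoderm without WT C6.1 (-0.00258) or without P1-CTCF-KO E9.1 (-0.20). The cause was not tested. With the clone as a replicate block, 29, 29 and 28 members were higher in HPCs than in mesoderm for WT, P1-CTCF-KO and P2-CTCF-KO, and no count of calls moved by over 1.5 times. Of 318 counts of calls recomputed in all, 314 stayed within 1.5 times. Many of these were 0 in every setting, and those of HPCs against mesoderm were largely set by the filter, so this number is no measure of robustness. Single members kept direction and call in 1195 values, lost the call in 12 and gained it in 3.

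Over all genes, the 3 lower calls in P2-CTCF-KO mesoderm became 143 with DESeq2, 344 without the filter, 97 without WT C6.1 and 15 in a fit of all 23 libraries, and the 0 higher calls 25, 87, 30 and 3. The 2 higher calls of the P2-CTCF-KO interaction became 34 with DESeq2. From mESCs to mesoderm, 1386 higher calls became 545 or 507 and 1761 lower calls 540 or 581 without an undifferentiated library, and 1146 lower with DESeq2. Lower calls in P2-CTCF-KO HPCs against mesoderm went from 1073 to 1615 without the filter. Leaving out WT B9.3 and P2-CTCF-KO D2.1 HPCs, chosen after seeing the data, moved no member count by over 1.5 times. Within 500 or 2000 bases of a start site, 19 or 22 members had a mesoderm peak and 12 or 15 an HPC peak. A floor of 3 counts was 0.124 to 0.364 CPM in mesoderm and 0.209 to 0.608 CPM in HPC libraries, and levels below it were not resolved.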
